A study of Mus musculus with 6 samples.

Results

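Oocytes that lack the histone demethylase KDM1A were set against the 2C embryos derived from such oocytes, with control oocytes as the common reference. The members were all genes that carried a test flag in both deposited comparisons with control oocytes, and 11162 of 47728 gene rows qualified. Of all rows, 11651 were tested in the oocyte table and 12000 in the mutant 2C table. For each member the log2 ratio of mutant oocytes over control oocytes was subtracted from the log2 ratio of mutant 2C embryos over the same control oocytes, after 1 was added to each mean. The result, called the bridged difference, is positive where the mutant 2C embryos had the higher level and is meant to separate changes already seen in the mutant oocyte from those seen only after fertilization.

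Kdm1aZp3 oocytes were ovulated eggs of Kdm1a fl/Δ females carrying Zp3-Cre, a transgene that is active in growing oocytes, so that the gene is lost before ovulation while the follicle cells keep it. The Kdm1aZp3 M-Z+ 2C embryos, collected at embryonic day 1.5, came from such females mated with wild-type males. They lack the maternal protein store and carry an intact paternal Kdm1a allele. Each mutant group had 3 libraries, made from pooled eggs or embryos of superovulated females. The controls were Kdm1a fl/fl oocytes and Kdm1a fl/fl M+Z+ 2C embryos, both taken by the authors from previously published sequencing.

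KDM1A removes methyl groups from lysine 4 of histone H3 and can thereby silence promoters and enhancers. The ovulated mouse egg does not transcribe and lives on stored maternal mRNA. During the maternal-to-zygotic transition (MZT) this store is degraded, and the embryonic genome becomes active at the 2C stage. A normal interval from egg to 2C embryo therefore holds both the loss of oocyte transcripts and the appearance of embryonic ones.

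The deposited values are 1 normalized mean per group, with no value per library. No spread between replicates or test could be computed from them, the p-values in the tables were not used, and every difference in this report is a description of group means. Library depth is unknown for the same reason. The labels name different library kits for mutant oocytes and mutant 2C embryos, so stage and kit cannot be told apart, and genotype cannot be told apart from study of origin against either control group. The tables were normalized separately, and 2C means are given here on the scale of the oocyte table, set by the control oocyte means that both hold. The control column was recognised by its values, since the 2C tables name their columns only a and b. Over 9681 genes the log2 ratio of column a to the named control oocyte column had an SD of 0.0265, against 1.46 for column b over 8725 genes.

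Kdm1a itself (GRCm38, chromosome 4, 136550540 to 136602723, minus strand) followed the labels. Its mean was 921 in control oocytes, 6.37 in mutant oocytes, 9.82 in mutant 2C embryos and 798 in control 2C embryos. Both mutant groups were thus far below both control groups. Markers of other cell types were mostly near 0 in control oocytes, mutant oocytes and mutant 2C embryos, and control 2C embryos were not summed. Of 21 cumulus and granulosa markers, 18 to 19 were under 10 in each of the control oocytes, mutant oocytes and mutant 2C embryos, and the summed level of 1022, 4335 and 1045 in these groups came almost wholly from the aromatase gene Cyp19a1. The anti-Müllerian hormone receptor gene Amhr2 and the inhibin gene Inha were listed at 0 in both oocyte groups. In control 2C embryos, Amhr2 was at 348 and Inha at 0.36. Of 13 blood, 10 oviduct and 14 sperm markers, at least 11, 7 and 11 were under 10 in each group. The summed blood level was 164, 128 and 242, the oviduct level 249, 460 and 595, and the sperm level 3070, 2525 and 2049, in the same order, and the highest gene of these lists was Cd68, Epcam and Odf2, respectively. Globin genes Hba-a1 and Hbb-bs were listed at 0 in both oocyte groups, as were the ciliary regulator Foxj1 and the sperm gene Spem1. By contrast, the blood marker Cd74 and the sperm marker Gapdhs were at 0 in control oocytes and at 39.8 and 28.4 in mutant oocytes. The oviduct marker Ovgp1 was at 96.4 in control 2C embryos and under 10 in the other groups. Whether such RNA had a part in the results was not tested.

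The transcriptome of the mutant 2C embryos lay further from control oocytes than that of the mutant oocytes did. Of the members, 71.9% were within 2-fold of control in mutant oocytes, 46.0% in mutant 2C embryos, and 32.4% in control 2C embryos. The bridged difference had a median of -0.27 and quartiles of -1.38 and 0.70 on the log2 scale, and 49.0% of members were within 2-fold. At least 4-fold higher levels in mutant 2C embryos than in mutant oocytes were found for 636 genes (5.7%), and at least 4-fold lower levels for 1737 (15.6%). The direct ratio of the scaled mutant means, which uses no control value, gave almost the same numbers per gene. It differed from the bridged difference by a median of 0.0196 and at most by 0.69, with 120 genes over 0.5. A value of exactly 0 was listed for 68 members in mutant oocytes, for 79 in mutant 2C embryos and for 12 in both.

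**Figure D1:**
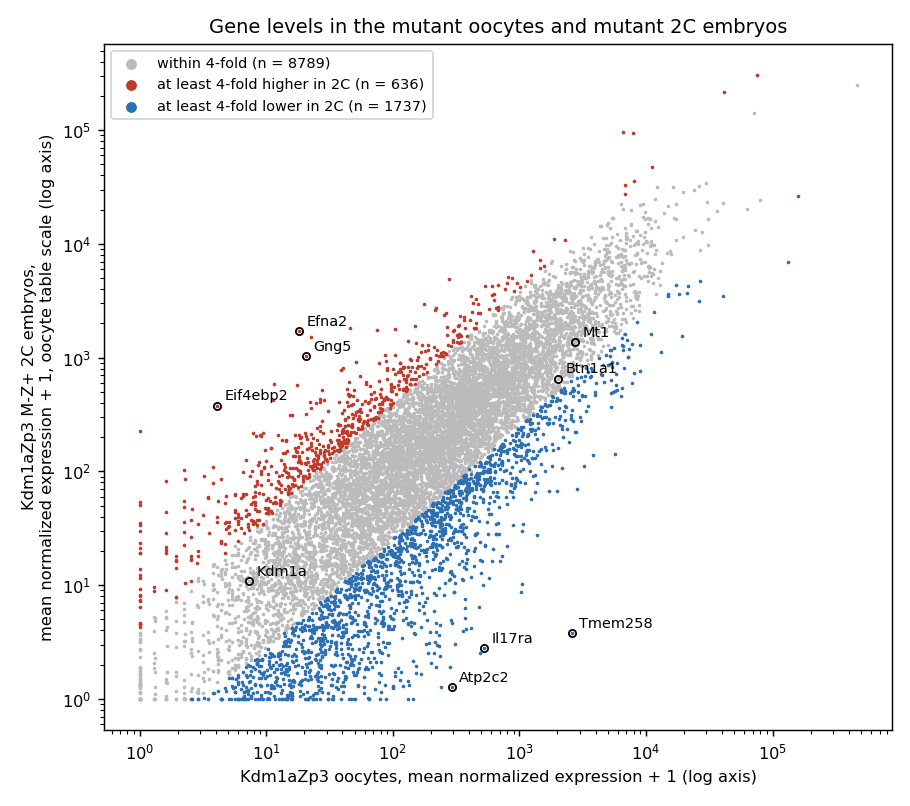
Mean normalized expression + 1 of 11162 genes in mutant oocytes (x axis) and mutant 2C embryos (y axis, oocyte table scale), both on log axes, with 1 point per gene and selected genes circled. Genes at least 4-fold lower in 2C embryos by the bridged difference (1737, blue) outnumbered those at least 4-fold higher (636, red), and Kdm1a sat at the low end of both axes.

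Among genes that reached a mean of 200 in either mutant group and were above 0 in both, Eif4ebp2 and Efna2 had the highest bridged difference. Eif4ebp2 (chromosome 10, 61428491 to 61452661), a repressor of cap-dependent translation, had means of 150 in control oocytes, 3.08 in mutant oocytes, 379 in mutant 2C and 481 in control 2C embryos. Its low value was found only in mutant oocytes, and the bridged difference was 6.60. Efna2 (chromosome 10, 80179482 to 80190010), which encodes the membrane-bound ligand ephrin-A2, had means of 83.7, 17.2, 1708 and 0.36 in the same order. Mutant 2C embryos thus stood far above the other groups (bridged difference 6.60), whereas the control interval ran the other way (-6.71). Gng5, a G protein gamma subunit, was at 15.9, 19.5, 1032 and 236, with a bridged difference of 5.67. Rps27l, a ribosomal protein S27-like gene, was at 35.6, 44.9, 1826 and 1386 (5.34). In both cases the oocyte groups were low and the 2C groups high, whatever the genotype. The others of the 8 highest were Ifitm6, Fam49a, Arf4 and Nubp2, with bridged differences of 6.07, 5.07, 4.86 and 4.61. Crip2, a LIM domain protein gene, was listed at 0 in mutant oocytes, so that it was not ranked with these and no fold is given, and had a mean of 227 in mutant 2C embryos, against 29.8 and 29.5 in control oocytes and control 2C embryos.

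At the other end stood Tmem258 (chromosome 19, 10204014 to 10207824), a subunit of the complex that attaches N-linked sugars. Its mean was 1161 in control oocytes, 2592 in mutant oocytes, 2.78 in mutant 2C and 32.8 in control 2C embryos, a bridged difference of -9.58. The control interval was also strongly negative (-5.15). Fam83g and Cd200 had a similar form, with bridged differences of -7.82 and -8.01 and control intervals of -8.73 and -7.82. Il17ra (chromosome 6, 120463247 to 120487559), a receptor chain for interleukin 17, differed from these. It was at 604, 525 and 1.78 in control oocytes, mutant oocytes and mutant 2C embryos and at 309 in control 2C embryos, so that only the mutant 2C embryos were low (bridged difference -7.75, control interval -0.96). Xrcc1, a scaffold for DNA strand break repair, also had its only low mean in mutant 2C embryos, with 318, 309 and 2.02 against 164 in control 2C embryos (bridged difference -6.89). The calcium pump gene Atp2c2, the secreted receptor ligand Gas6 and the mRNA surveillance gene Smg9 were the others of the 8 lowest, with bridged differences of -8.33, -7.49 and -7.10. Their mutant 2C means were 0.27, 0.90 and 0.90, and those of Cd200 and Fam83g were 0.28 and 1.55. So near 0, size and order depend on the number added to each mean. With 10 added in place of 1, the values were -5.49, -5.25 and -4.83 for Atp2c2, Gas6 and Smg9. Tmem258 was then at -8.14, Il17ra at -5.99 and Cd200 at -5.16.

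To ask how far the mutants passed through the usual interval, members were sorted by the change between control oocytes and control 2C embryos, and the direct ratio between the mutant groups was read in each set. The 3143 genes that were at least 4-fold lower in control 2C embryos (28.2% of members) had a median of -3.35 in controls and -0.90 in mutants. Of these, 24.8% were at least 4-fold lower in mutant 2C embryos than in mutant oocytes. The 1467 genes that were at least 4-fold higher in control 2C embryos (13.1%) had a median of 3.00 in controls and 0.22 in mutants, and in mutants 12.5% were at least 4-fold higher and 12.4% at least 4-fold lower. Over all members the direct ratio was at least 4-fold higher for 5.64% and lower for 15.2%. In both sets the mutant interval was smaller than the control interval at the median. The 6552 remaining genes had a median of -0.17 in controls and -0.07 in mutants, with 11.2% at least 4-fold lower in mutant 2C embryos. Sorting by an extreme of the control interval favours large control values in itself, and no test of the difference was possible.

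Some genes passed 4-fold in opposite directions, in smaller shares than those over all members. Mutants were lower and controls higher at 2C for 182 genes (12.4% of the control-higher set, against 15.2% over all members), among them Psmb1, a subunit of the proteasome core, Dppa4 and Dppa5a, both marker genes of pluripotent cells, and Prkcd, a protein kinase C. Psmb1 was at 174 in control oocytes, 372 in mutant oocytes, 4.14 in mutant 2C and 815 in control 2C embryos. Dppa4 was at 73.6, 615, 19.98 and 947, so that it was high in mutant oocytes before it was low in mutant 2C embryos. Mutants were higher and controls lower for 94 genes (2.99% of the control-lower set, against 5.64%), including Efna2, the fatty acid receptor gene Ppara, the serotonin receptor gene Htr5a and Tcl1b4. Ppara was at 143, 38.6, 324 and 7.60, and Htr5a at 298, 266, 1875 and 17.8. For these the mutant 2C embryos held the highest mean and the control 2C embryos the lowest.

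Changes already present in mutant oocytes were in part seen again in the mutant 2C embryos, and for decreases the counts changed with a minimum set on the mutant means. Levels at least 4-fold above control were found for 452 members in mutant oocytes (4.05%). Of these, 263 (58.2%) were also at least 4-fold above control oocytes in mutant 2C embryos, 75 (16.6%) were within 2-fold of control and 114 lay between. For comparison, 7.74% of all members were at least 4-fold above control oocytes in mutant 2C embryos. Levels at least 4-fold below control were found for 537 members (4.81%), of which 331 (61.6%) were kept, 87 (16.2%) were within 2-fold and 119 lay between. Where 1 or both mutant groups had to reach a mean of 50, higher genes were kept in 241 cases and not kept in 66, but lower genes in 43 and 39. A kept decrease is low in both mutant groups by definition, so this minimum removes kept decreases more readily than those not kept. It therefore cannot show whether keeping a decrease depends on level. Over all members 18.3% were at least 4-fold below control oocytes in mutant 2C embryos. Both ratios use the same control oocyte means, so an error in a control mean moves them together, and the mutant oocyte mean enters the oocyte ratio and the bridged difference with opposite signs. Among the kept changes the median log2 ratio to control was 2.94 in mutant oocytes and 3.54 in mutant 2C embryos for higher genes, and -3.06 and -3.89 for lower genes. Kept was judged against control oocytes and not against control 2C embryos. In the control interval, 83 of the 263 higher and kept genes were at least 4-fold higher and 63 at least 4-fold lower. Of the 331 lower and kept genes, 149 were at least 4-fold lower and 35 at least 4-fold higher in that interval. Over all members, 13.1% were at least 4-fold higher and 28.2% at least 4-fold lower in it.

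**Figure D2:**
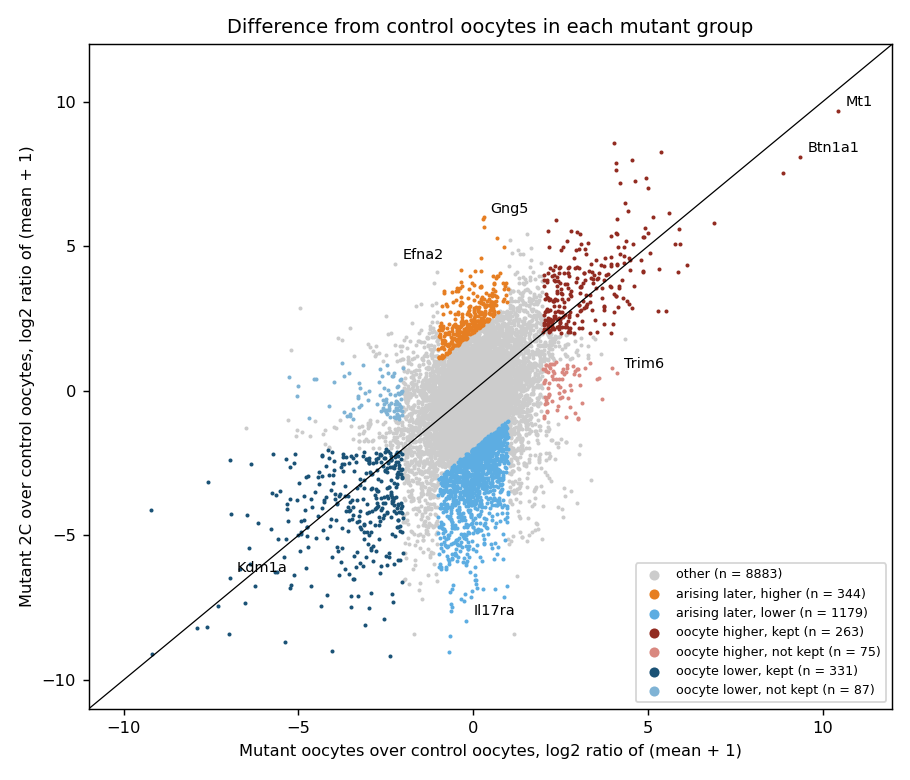
Log2 ratio of (mean + 1) to control oocytes for mutant oocytes (x axis) and mutant 2C embryos (y axis), 1 point per gene, coloured by class, with the line of equal ratios. Both axes share the control oocyte means. Higher and kept genes (263) and lower and kept genes (331) lie in the outer corners, and genes within 2-fold of control in oocytes that were at least 4-fold lower (1179) or higher (344) in 2C embryos form the central column.

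Mt1, which encodes the metal-binding protein metallothionein 1, had the largest kept increase among genes with an established symbol that reached a mean of 200 in either mutant group. Its mean was 0.98 in control oocytes, 2749 in mutant oocytes, 1366 in mutant 2C and 4816 in control 2C embryos. It was near 0 in control oocytes alone, and from mutant oocytes to mutant 2C embryos the bridged difference was -0.77, against a control interval of 11.63. Mt2, its neighbour on chromosome 8, which is commonly induced together with it, was tested in neither of the bridged tables and is no member, and its means were 1.16, 2.47, 6.80 and 7888 in the same order. Mt2 was thus high in control 2C embryos only. Both genes are induced by zinc through metal response elements bound by MTF1, and their promoters are shown because the neighbours differed in the mutants. The RefSeq windows (GRCm38.p6, plus strand, 250 bases before to 50 after the gene start) are chr8:94178839-94179138 for Mt1 and chr8:94172368-94172667 for Mt2, with matches to TGCNCNC on either strand in capitals.
Mt1: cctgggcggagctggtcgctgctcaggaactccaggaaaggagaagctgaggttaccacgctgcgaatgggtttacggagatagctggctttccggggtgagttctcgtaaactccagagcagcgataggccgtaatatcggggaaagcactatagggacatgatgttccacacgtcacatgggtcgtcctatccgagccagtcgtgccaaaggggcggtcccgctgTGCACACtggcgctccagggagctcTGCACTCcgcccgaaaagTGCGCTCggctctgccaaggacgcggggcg
Mt2: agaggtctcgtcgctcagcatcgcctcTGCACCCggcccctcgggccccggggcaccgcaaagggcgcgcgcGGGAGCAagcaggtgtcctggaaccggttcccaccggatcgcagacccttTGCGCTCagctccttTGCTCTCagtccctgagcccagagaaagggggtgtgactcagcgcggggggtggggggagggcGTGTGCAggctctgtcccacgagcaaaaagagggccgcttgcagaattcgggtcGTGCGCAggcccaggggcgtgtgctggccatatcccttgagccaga
The Mt1 window held 3 matches and the Mt2 window 6, and no other motif was searched. Bases outside these windows were not searched at either gene, so the counts are not totals for the promoters. Of 32851 promoter windows of this length, 51.0% held at least 1 match, 7.10% at least 3 and 0.225% at least 6. A match is a run of letters and not a shown binding site. Mtf1 itself was at 2785 in control oocytes, 1677 in mutant oocytes, 2731 in mutant 2C and 1920 in control 2C embryos.

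By the same rule the largest kept increases after Mt1 were those of Btn1a1, Tceal8 and Ltbp4. Btn1a1 (chromosome 13, 23456992 to 23465901), a component of the milk fat globule, had means of 2.07 in control oocytes, 2028 in mutant oocytes, 650 in mutant 2C and 0.47 in control 2C embryos. It was near 0 in both control groups and high in both mutant groups. Tceal8, on the X chromosome, was at 1.81, 1300, 502 and 9.78, with both control means likewise far below both mutant means. Ltbp4, which binds latent TGF-beta in the extracellular matrix, was at 4.79, 347, 185 and 81.6, and for this gene, as for Tceal8, the control 2C embryos lay above the control oocytes. All 4 genes were lower in mutant 2C embryos than in mutant oocytes, with bridged differences from -1.33 to -0.77. They were picked for the largest ratio in mutant oocytes, which favours a negative bridged difference in itself. Over all 263 higher and kept genes the median bridged difference was 0.35, so these 4 do not stand for the class. The kept decreases named by the same minimum of 200 were Cytb and Cox2 of the mitochondrial genome, the zinc finger gene Zbtb34 and the podosome adaptor gene Sh3pxd2a. Zbtb34 was at 2423 in control oocytes, 450 in mutant oocytes, 424 in mutant 2C and 3092 in control 2C embryos, so that both mutant groups were similarly low against both controls. Sh3pxd2a was at 1391, 225, 299 and 303, and its mutant means were close to the level that controls had at 2C.

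Changes that were not kept went back towards the level of control oocytes from either side, which was not always the level of control 2C embryos. Trim6, a ubiquitin ligase gene, was at 13.2 in control oocytes, 246 in mutant oocytes, 20.9 in mutant 2C and 638 in control 2C embryos. It was high in mutant oocytes and then low at the stage at which controls were high (bridged difference -3.50, control interval 5.50). Slamf7, an immune cell receptor gene, followed the same course at 17.0, 208, 22.4 and 215. Arid3c and the nicotinic receptor subunit gene Chrna5, by contrast, were low in control 2C embryos, and their bridged differences were -2.37 and -2.43. Among decreases that were not kept, Traf7, a signalling adaptor with ubiquitin ligase activity, was at 294, 53.3, 304 and 462. The developmental gene Mab21l2, the ubiquitin ligase gene Trim37 and the carboxypeptidase gene Cpa1 had bridged differences of 2.09, 1.79 and 1.36.

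Of the 8028 members within 2-fold of control in mutant oocytes, 344 (4.29%) were at least 4-fold higher and 1179 (14.7%) at least 4-fold lower in mutant 2C embryos by the bridged difference. These shares compare with 5.7% and 15.6% over all members, and they are classed here as arising later. When every gene row was counted, tested or not, 1610 were higher and 1568 lower, so that the excess of lower genes was not seen. The higher genes had a median bridged difference of 2.45 and a median control interval of 1.18. In controls, 119 of them were at least 4-fold higher and 36 at least 4-fold lower at 2C. The lower genes had medians of -2.88 and -1.86, with 565 at least 4-fold lower and 93 at least 4-fold higher in controls. Over all members the control shares were 13.1% higher and 28.2% lower. In either direction, more of these genes had a control change of the same sign than of the opposite sign. By definition the mutant oocyte means of these genes lie near the control oocyte means, which the control interval also uses. Part of the agreement in sign can thus come from that shared reference, and how much was not tested. Gng5 and Rps27l, described above, led the higher genes. Mgst3, a glutathione transferase of membranes, was at 44.998 in control oocytes, 73.4 in mutant oocytes, 1750 in mutant 2C and 104 in control 2C embryos, so that only the mutant 2C mean was high. Lsm1, a component of the mRNA decay machinery, was at 11.1, 8.40, 216 and 154. Atp2c2, Cd200, Fam83g and Il17ra led the lower genes, and of these only Il17ra was within 2-fold of control oocytes in control 2C embryos.

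Gene lists drawn up for oocyte and embryo biology were described by their counts and medians, beside 5.7% higher, 15.6% lower and a median of -0.27 over all members. Most lists of maternal transcripts had medians closer to 0 in mutants than in controls. Of 8 genes of the subcortical maternal complex, a protein assembly under the egg membrane that is required for early cleavage, 2 were at least 4-fold higher and 1 lower in mutant 2C embryos. The median bridged difference was -0.49, against -3.38 for the control interval. Ooep was at 5039 in control oocytes, 6842 in mutant oocytes, 33087 in mutant 2C and 1518 in control 2C embryos. Zbed3 was at 65629, 74841, 304405 and 39672, so that both had their highest mean in mutant 2C embryos. Nlrp5, also called MATER, was at 8191, 10206, 8310 and 707, and only the control 2C embryos stood low. Of 8 growth factors and receptors of the oocyte, 0 passed 4-fold in either direction, and the medians were -1.01 and -3.09. Gdf9, which signals to cumulus cells, was at 14528, 30876, 9763 and 277, and its partner Bmp15 at 16307, 10830, 16715 and 1870. Zona pellucida genes and oocyte transcription factors had a median of -0.04 against -2.46, with 1 of 8 higher (Taf4b, 2.05) and 2 lower (Zp1, -3.29, and Zp3, -2.56). The 4 Obox homeobox genes had a median of -0.14 against -4.12, with 0 past 4-fold.

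The Tcl1 family, a cluster of small egg-expressed coactivators of the kinase AKT with its relative Mtcp1, moved against the control interval in all its members. All 7 genes had a higher mean in mutant 2C embryos than in mutant oocytes, 2 of them at least 4-fold, with a median bridged difference of 1.69. In controls all 7 had a lower mean at 2C than in oocytes (median -1.76, 3 at least 4-fold). Tcl1 was at 3484 in control oocytes, 2510 in mutant oocytes, 8668 in mutant 2C and 416 in control 2C embryos. Tcl1b1 was at 2300, 1140, 4680 and 952, and Tcl1b4 at 584, 339, 2327 and 49.2. The smallest bridged difference, 0.79, was that of Tcl1b5. Close relatives in this family may share reads, so single members are less certain than the family.

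Among 16 maternal effect genes, whose products the embryo needs from the egg, 1 was at least 4-fold higher and 3 were lower, with a median of 0.17 against -1.62. Dnmt1, the maintenance DNA methyltransferase, was at 77539 in control oocytes, 132839 in mutant oocytes, 6864 in mutant 2C and 1472 in control 2C embryos. Npm2, a histone chaperone of the egg, was at 12807, 13033, 1110 and 185. Zar1, which is needed for the egg-to-embryo transition, was at 2817, 5210, 1028 and 19.3. These 3 genes were lower at 2C in mutants as in controls, and in each the mutant 2C mean stayed above the control 2C mean. The heat shock regulator Hsf1 was the higher gene, with a bridged difference of 2.39. Of 13 genes of DNA methylation and demethylation, Dnmt1 alone passed 4-fold, and the list median was -0.60. Genes of mRNA storage and clearance had 1 of 23 higher (Ybx2, 2.38) and 1 lower (Ddx6, -2.35), with a median of 0.00 against -0.80.

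Genes of egg meiosis and arrest split. Of 18 members, 4 were at least 4-fold higher (Sycp3, 3.40, Ccnb2, 3.01, Cks2, 2.82, and Cdc20, 2.03) and 3 lower, with a median of 0.41. Mos, the kinase that holds the egg in metaphase, was at 273 in control oocytes, 564 in mutant oocytes, 27.2 in mutant 2C and 42.8 in control 2C embryos. Bub1b, a spindle checkpoint kinase, was at 6647, 5496, 495 and 458, and the mitotic kinase gene Plk1 at 5541, 6753, 803 and 585. Their bridged differences were -4.38, -3.50 and -3.06, beside control intervals of -2.71, -3.89 and -3.23.

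**Figure D3:**
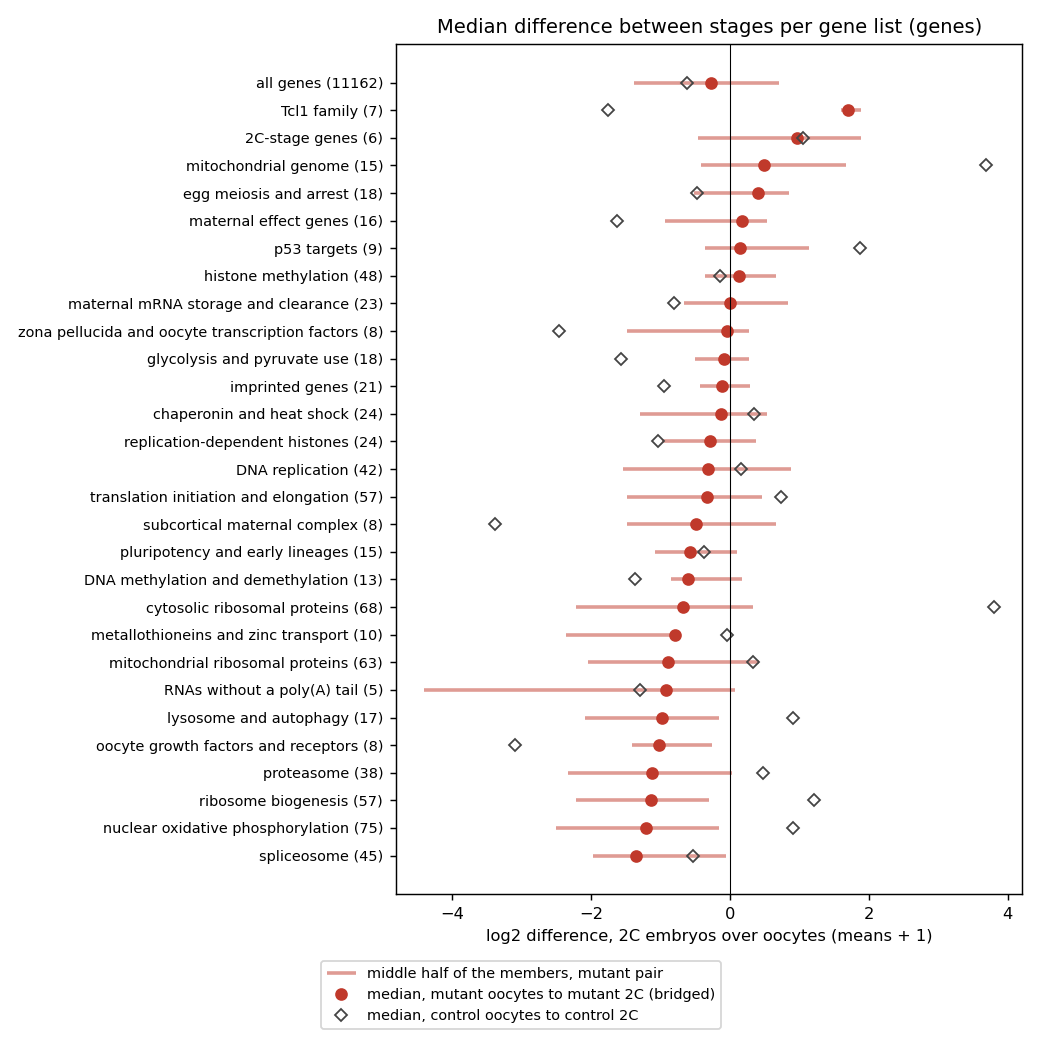
Median log2 difference of 2C embryos over oocytes for each gene list with at least 5 members tested (number in brackets), in mutants through the control bridge (red circles, with bars from the lower to the upper quartile) and in controls (open diamonds). The subcortical maternal complex sits at -0.49 in mutants and -3.38 in controls, oocyte growth factors and receptors at -1.01 and -3.09, the Tcl1 family at 1.69 and -1.76, and cytosolic ribosomal proteins at -0.67 and 3.80.

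Genes of protein synthesis and of mitochondria showed the reverse, with positive list medians in the control interval and mostly negative ones in mutants. Of 68 cytosolic ribosomal protein genes, 58 were at least 4-fold higher at 2C in the controls, with a median of 3.80, against 13.1% of all members. In mutants 6 were higher (8.82%) and 19 lower (27.9%), with a median of -0.67, beside 5.7% and 15.6% of all members. These genes are short, with a median length of 1048 bases. After the median of each length bin was subtracted, the list median in mutants was -0.08. Rps15, a small subunit gene, was at 141 in control oocytes, 245 in mutant oocytes, 30.4 in mutant 2C and 2423 in control 2C embryos. Rpl23 was at 305, 927, 77.7 and 3205, and Rps27l was the strongest exception. The median for these genes was 0.79 in mutant oocytes over control oocytes, so that the mutant 2C embryos came to lie near control oocytes (-0.17). Ribosomal protein genes have many processed copies that can share reads. Of 57 genes of ribosome biogenesis, 2 were higher and 18 lower (31.6%), with a median of -1.13 against 1.21 in controls. Rrp15 was at 200, 167, 0.66 and 425, and Ubtf, a factor for RNA polymerase I, at 129, 87.0, 11.3 and 793. Both were low in mutant 2C embryos alone. Translation factors had 2 of 57 higher and 7 lower, with a median of -0.33 against 0.73, and Eif3d was lowest at -4.55.

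Transcripts of the mitochondrial genome were below control in mutant oocytes and remained so at 2C for most members. Over 15 rows the median was -2.49 in mutant oocytes and -1.89 in mutant 2C embryos relative to control oocytes, whereas in control 2C embryos it was 3.68, with 15 of 15 at least 4-fold higher. Cytb was at 34992 in control oocytes, 4768 in mutant oocytes, 6117 in mutant 2C and 406273 in control 2C embryos. The gene mt-Co3 was at 2485, 308, 1088 and 64297, and Atpase6, which is listed on chromosome 1 and on the mitochondrial chromosome and may share reads between them, had a bridged difference of 1.52. The 3 rows past 4-fold between the mutant groups were the ribosomal RNA gene mt-Rnr1 (2.42) and the rows AK018753 (3.60) and GU332589 (3.89). Nuclear genes of oxidative phosphorylation went the other way. Of 75, 2 were higher and 27 lower (36.0%, against 15.6% of all members), with a median of -1.20, although their median in mutant oocytes was 0.75 above control. Ndufa12, of respiratory complex I, was at 96.9, 356, 2.94 and 57.5, and Atp5b, the catalytic subunit of ATP synthase, was an exception at 917, 1456, 7178 and 9490. Mitochondrial ribosomal proteins had 4 of 63 higher and 17 lower (27.0%), with a median of -0.89, and Mrpl49 was at 19.9, 144, 1.15 and 175.

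**Figure D4:**
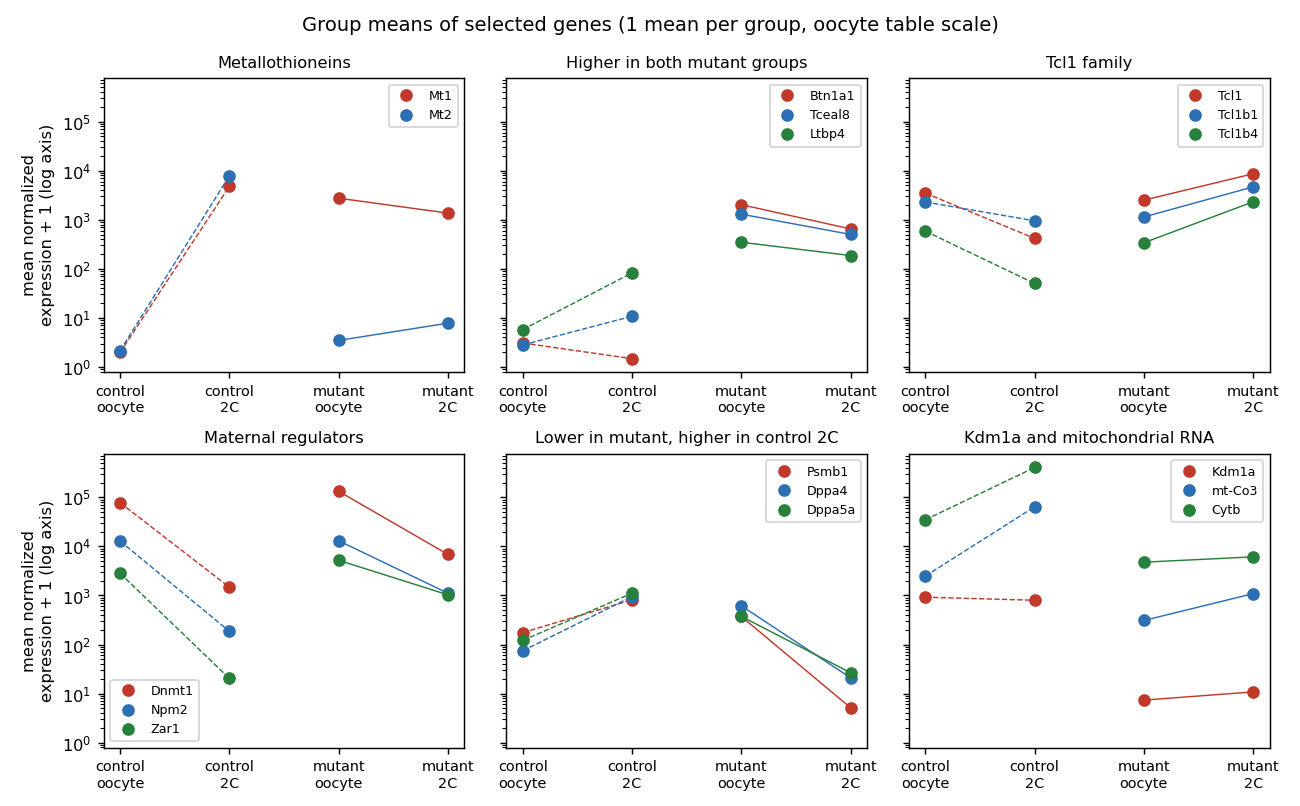
Group means + 1 (log axis, oocyte table scale) of 17 selected genes in control oocytes, control 2C embryos, mutant oocytes and mutant 2C embryos, with 1 mean per group and no error bars because no value per library was used. Broken lines join the controls and solid lines the mutants: Tcl1 is higher at 2C in mutants (2510 to 8668) and lower in controls (3484 to 416), and Psmb1 the reverse (372 to 4.14 and 174 to 815).

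Of the other housekeeping lists, the proteasome, the spliceosome and the lysosome list had medians below the -0.27 of all members, and the rest lay near it. The proteasome had 1 of 38 genes higher (Psmc6, 2.59) and 10 lower (26.3%), with a median of -1.12, led by Psmb5 (-6.64), Psmb1 (-6.30) and Psmc3 (-5.69). The spliceosome had 1 of 45 higher (Cdc5l, 2.87) and 11 lower (24.4%), with a median of -1.35 and Snrpd2 lowest (-5.46). Of 17 lysosome and autophagy genes, 0 were higher and 5 lower (29.4%), with a median of -0.97, and Npc1, a cholesterol transporter of the lysosome, was at 1510.3 in control oocytes, 2759 in mutant oocytes, 221 in mutant 2C and 133 in control 2C embryos. Chaperones had 1 of 24 higher and 4 lower (16.7%), with a median of -0.13, and replication-dependent histones had the same counts with a median of -0.28. DNA replication genes had 1 of 42 higher (Gmnn, 2.25) and 8 lower (19.05%, Rfc2 lowest at -5.20), with a median of -0.32. Glycolysis genes had 1 of 18 in each direction, Eno1 (2.35) and Tpi1 (-2.06), with a median of -0.09. The lower shares stand beside 15.6% over all members, and those of these last 4 lists ran from 5.56% to 19.05%.

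Chromatin and developmental regulators were read against 5.7% higher and 15.6% lower over all members. Of 48 histone methylation genes, 0 were at least 4-fold higher and 1 lower (2.08%), the H3K9 methyltransferase gene Ehmt1 (-2.01), and the median was 0.14. Of 15 regulators of pluripotency and early lineages, 0 were higher and 2 lower (13.3%), Dppa4 (-4.92) and Dppa5a (-3.86). Klf4 was at 108 in control oocytes, 0.31 in mutant oocytes, 1.08 in mutant 2C and 328 in control 2C embryos, and Nr5a2 at 731, 142, 138 and 2367, so that both were low in mutants at either stage. Of 21 imprinted genes, 1 was higher (Kcnq1ot1, 2.26) and 3 were lower (14.3%), so that the lower shares of both lists were near that of all members. Igf2r, the receptor that clears insulin-like growth factor 2, was at 442, 284, 25.2 and 1836, and was low in mutant 2C embryos alone. Plagl1 (-2.57) and Impact (-2.21) were the others. Of 9 p53 target genes, Cdkn1a, a cell cycle inhibitor, passed 4-fold (3.30) at 10.1, 16.8, 164 and 154, beside a control interval of 3.94. Of 10 metallothionein and zinc transport genes, 0 were higher and 3 lower, all zinc transporters: Slc30a5 (-6.78), Slc30a1 (-4.67) and Slc39a9 (-2.73). Slc30a1, which exports zinc from the cell, was at 520, 283, 10.4 and 894. Of 5 RNAs without a poly(A) tail, Rn7sk (-5.38) and Scarna2 (-4.40) were lower, and Rn7sk was at 4836, 2829, 68.4 and 512.

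Genes that mark the 2C stage could be bridged only in part. Of 42 rows of such genes, 6 were tested in both tables, 2 of them at least 4-fold higher in mutant 2C embryos, with a median of 0.96 against 1.06 in controls. Zscan4d, of a family expressed in a burst at the 2C stage, was at 18.0 in control oocytes, 9.28 in mutant oocytes, 82.7 in mutant 2C and 215 in control 2C embryos. Tcstv1 was at 83.2, 96.7, 421 and 20.3 and Tcstv3 at 5.57, 39.8, 14.8 and 238, so these relatives had opposite orders at 2C. Most other rows of the list were listed at or near 0 in both oocyte groups and thus have no bridge. The medians of the 6 tested rows therefore cannot speak for the list. Of the 36 other rows, 31 had the higher mean in control 2C embryos, 4 in mutant 2C embryos and 1 had equal values.

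The bridged difference also moved with transcript length, base composition and level. Lengths were matched for 10163 members (91.0%) by symbol. The median was -0.94 for genes whose longest annotated transcript is under 750 bases, of which 30.0% were at least 4-fold lower, and -0.10 for those of at least 6000 bases, of which 10.9% were lower. By GC content the median ran from 0.36 under 40% to -0.54 at 50 to 55%. The share at least 4-fold lower was 27.4% for genes with a mean under 50 over both mutant groups and 6.27% at 5000 or more. The gene lists differ in length too: the median length was 1048 bases for cytosolic ribosomal proteins, 1046 for nuclear oxidative phosphorylation and 3395 over all members. After the median of each length bin was subtracted, the list medians were -0.08 for cytosolic ribosomal proteins, -0.60 for nuclear oxidative phosphorylation, -0.58 for the proteasome, -1.04 for the spliceosome and 2.12 for the Tcl1 family. The ratio of mutant oocytes over control oocytes moved with length as well, with a median of 0.40 under 750 bases and -0.20 at 6000 bases or more. The oocyte medians of 0.79 for cytosolic ribosomal proteins and 0.75 for nuclear oxidative phosphorylation were not adjusted for length. The labels name different kits for the stages, so stage and kit cannot be told apart in the bridged trends. In the oocyte ratio, genotype and study of origin cannot be told apart.

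**Figure D5:**
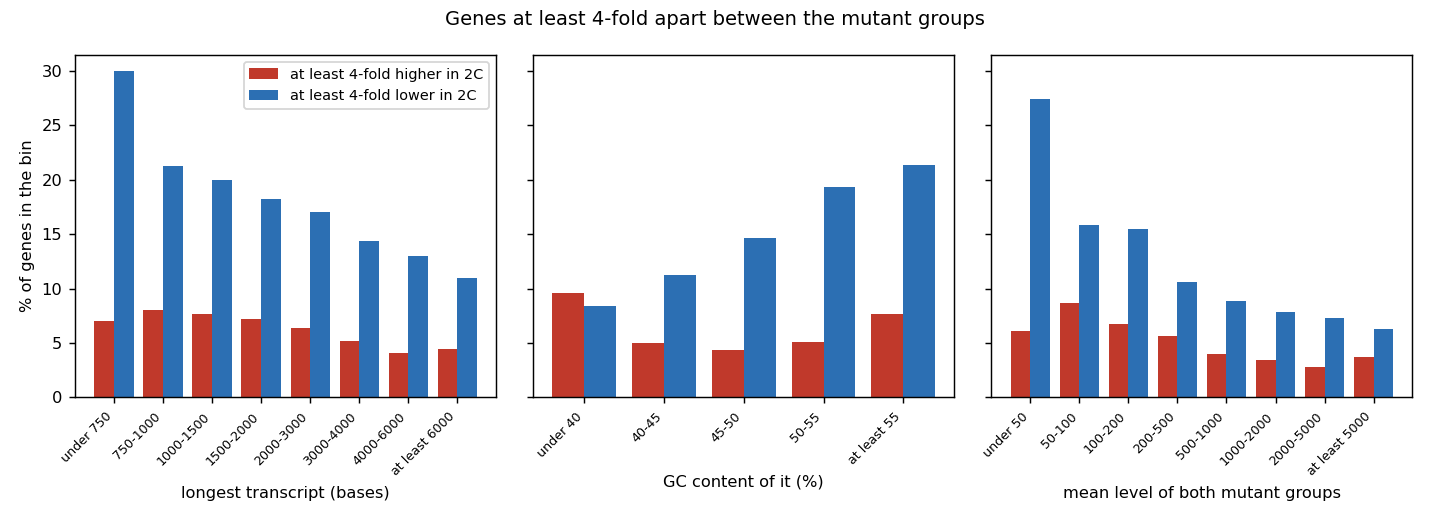
Percent of genes at least 4-fold higher (red) or lower (blue) in mutant 2C embryos than in mutant oocytes, by length of the longest transcript, its GC content, and the mean level of both mutant groups. The share of lower genes goes from 30.0% under 750 bases to 10.9% at 6000 bases or more, and from 27.4% to 6.27% with level.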

How the data were processed

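RNA-seq of Kdm1aZp3 oocytes and Kdm1aZp3 M-Z+ 2C embryos, 3 libraries each, was read from 3 deposited tables. The authors aligned reads with BBMap to mm10 genes and repeats, weighted reads that fitted several loci, median normalized and averaged within groups, and the deposited mean is a normalized score. Cufflinks and DESeq appear in the submitters' processing notes, with versions not given in the sources used here. Genes with few raw reads in all conditions carry another value of the deposited test flag and were left out. The tables' own fold changes, p-values and adjusted p-values were not used, nor were repeats or the direct mutant and control 2C table. There were 0 columns of per-library values.

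The pseudocount was 1 and the threshold 4-fold. Genes at least 4-fold from control in mutant oocytes were called kept where mutant 2C embryos were at least 4-fold from control in the same direction, and not kept where within 2-fold. Without replicate values no test was possible, so neither precision nor significance is given. Named were Kdm1a, Mt1, mt-Co3 and Atpase6, the 8 genes highest and the 8 lowest by bridged difference with a mean of at least 200, a value above 0 in both mutant groups and an established symbol on 1 row, the 4 largest per class, genes listed at 0, and the extreme members of 33 lists. Further list members, and the genes of opposite direction, were chosen after their values were seen. Members and lists were chosen with earlier results of these data known. Scales between tables came from genes with means of at least 20. Lengths and positions are from GENCODE on GRCm38 and promoters from RefSeq. The arithmetic of the bridge was tested on simulated means, with control means above 20 and the same control in both tables. That simulation does not cover low means or differences of kit and study. Python 3.11.15, numpy 2.4.6 and pandas 2.3.3 were used. Alternatives were other pseudocounts, filters, centring, the direct ratio, rows with unique symbols, 8-fold, and, added later, length bins.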

Additional observations from a re-analysis of the deposited data

How the results depend on the processing

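No paired analysis was possible because the deposited columns hold 1 mean per group and carry no replicate number, and leaving out replicates could not be run for the same reason. Of the recomputed counts, 22 moved by over 1.5 times and 38 did not. Of list medians 12 moved by over 0.5 and 228 did not, and of values of named genes 24 did and 281 did not. No list median or named gene went from past 4-fold in 1 direction to past 4-fold in the other. Some list medians changed sign below that threshold. With every gene row, pluripotency went from -0.57 to 0.13 and histones from -0.28 to 0.25. The excess of lower genes among those arising later was also not seen with every gene row. With a pseudocount of 10, genes higher in mutant oocytes were kept in 162 cases and not kept in 40, and lower genes in 157 and 28. Where genes had to reach a mean of 50 in either mutant group, lower genes were kept in 43 cases and not kept in 39, and list medians were 1.65 for 2C-stage genes, 0.67 for p53 targets and -2.66 for RNAs without a poly(A) tail. With every gene row, 2388 genes were higher and 2963 lower, 638 and 484 higher genes were kept and not kept, 807 and 190 lower genes, and 1610 higher and 1568 lower genes arose later, with medians of 0.13 for pluripotency, -0.82 for the spliceosome, 0.25 for histones and 0 for cumulus markers. Centred on the median, 524 higher genes arose later. At 8-fold, 173 genes were higher and 827 lower, 102 and 12 higher genes were kept and not kept, 131 and 26 lower genes, and 61 higher and 545 lower genes arose later. Minus the median of the length bin, an alternative chosen after seeing the data, medians were -0.078 for cytosolic ribosomal proteins, 1.39 for the mitochondrial genome, -0.60 for oxidative phosphorylation, -0.58 for the proteasome and 0.31 for histones. Other filters change the genes that enter a count. What else moved these values was not tested. Low means limit what can be said of the lower genes, whose kept count was 331 without and 43 with that minimum of 50. The minimum is set on the mutant means, which are low for kept decreases by definition.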

Other observations

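Genes tested in 1 of the bridged tables alone fall outside the members. The mutant 2C table alone tested 838, of which 115 had a mean of at least 50 in mutant 2C embryos, and the oocyte table alone tested 489, of which 119 had a mean of at least 50 in mutant oocytes. Zfp352 and Gm7102 were listed at 0 in both oocyte groups and were at 708 and 590 in mutant 2C embryos, against 1403 and 9848 in control 2C embryos. Ucma, a cartilage matrix protein, was high in mutant oocytes alone, with 3.51, 451 and 3.79 in control oocytes, mutant oocytes and mutant 2C embryos, and was listed at 0 in control 2C embryos. Cldn6, a tight junction protein, was listed at 0 in control oocytes and was at 126 in mutant oocytes, 1.27 in mutant 2C and 855 in control 2C embryos.

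Of 36 rows of the 2C-stage list without a bridge, 31 had the higher mean in control 2C embryos, 4 in mutant 2C embryos (Dux, Gm4340, Usp17lc and Usp17ld) and 1 had equal values. Pramel7 and Tdpoz1 were at 19.6 and 0.00219 in mutant 2C embryos and at 2579 and 451 in control 2C embryos. Dux, which encodes a transcription factor that switches on 2C-stage genes, was listed at 0 in both oocyte groups and was at 47.8 in mutant and 0.41 in control 2C embryos. Usp17ld was at 50.1 and 8.07 in the same order. Zscan4a and Zscan4b were at 4.10 and 0.86 in mutant 2C embryos and at 84.1 and 57.8 in controls. These are members of repeated gene families whose reads may be shared, and no test was possible.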
